A study of Rattus norvegicus with 6 samples.

Results

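The genes described here handle zinc, iron and copper: the Slc30 and Slc39 zinc transporters, the metallothioneins and their regulator Mtf1, the iron transporter genes Slc11a2 and Slc40a1 with Tfrc, Heph, Hmox1 and Ireb2, the Steap family, and the copper transporters Slc31a1, Slc31a2, Atp7a and Atp7b. They were chosen by gene symbol, without regard to their values, and came to 39 genes of 14217 measured genes. These 39 genes had 61 probe sets, and the one with the highest mean over the 6 arrays, on the log2 scale, stood for its gene. Both ferritin subunits, transferrin (Tf), Slc11a1, Slc30a8, Slc39a9 and Slc39a12 also fell under the choice. They had no probe set carrying their symbol alone, so they were not analysed here.

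The study profiled the rat renal inner medulla, the deepest zone of the kidney, in a pair of cell fractions. Male Sprague-Dawley rats, 7 in all, were given 1 mg furosemide, a loop diuretic, by intraperitoneal injection 30 minutes before decapitation, and the excised inner medulla was digested at 37 °C for 75 minutes with the enzymes hyaluronidase and collagenase B. Slow centrifugation then pelleted cells of the inner medullary collecting duct (IMCD, 3 arrays), and the cells recovered from its supernatant formed the other fraction (nonIMCD, 3 arrays). Both fractions came from furosemide-treated rats. No group without furosemide and no undigested tissue is among the samples analysed here. The rats of IMCD replicate 1 are labelled as 6 weeks old and those of each other array as 10 weeks old. The labels do not say which rats went onto which array, and p-values rest on the variation among the 3 arrays of each fraction, which may be technical. The series' design text speaks of 3 pairs of fractions, and the main test treated the arrays as unpaired. A fit with the replicate number as a factor, under which some calls were lost, is given in the last section.

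Cells take up divalent metals, pass them on bound to carrier proteins, store them and export them, with separate machinery for each metal. Zinc enters the cytosol through Slc39 (ZIP) proteins and leaves it through Slc30 (ZnT) proteins, and metallothioneins bind zinc and copper through clustered cysteines. Iron is taken up bound to transferrin by the transferrin receptor or as the free ferrous ion by Slc11a2 (DMT1), and leaves through ferroportin (Slc40a1). Cell surface and endosomal reductases, among them Steap proteins, convert ferric to ferrous iron so that it can be carried. In the kidney, metals that pass the glomerulus reach the tubule lumen, and Slc11a2 is known from several tubule segments, including the collecting duct.

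Of the 39 genes, 8 were higher and 8 were lower in the IMCD fraction, and 23 did not pass (limma, adjusted p under 0.05 with Benjamini-Hochberg adjustment over all 31042 probe sets tested). Those shares are 20.5% in each direction, beside 10.0% higher and 15.7% lower among all 14217 genes. In either direction 41.0% of the 39 passed, beside 25.8% of all genes. The 8 higher genes were Steap1, Slc11a2, Slc30a2, Mt3, Steap2, Hmox1, Slc30a1 and Slc39a11, at 1.36 to 5.84 times the nonIMCD level. The 8 lower genes were Slc39a8, Heph, Steap3, Slc30a4, Slc31a2, Tfrc, Mtf1 and Slc39a7, at 1.49 to 9.68 times below it. All differences are given as log2 of IMCD minus nonIMCD on the log2(intensity + 16) scale, which understates changes between dim signals, and folds are taken from it. The arrays of the fractions did not overlap for 20 of the 39 genes (51.3%), beside 48.7% of all genes. The median difference was -0.06 for the 39 genes and -0.09 for all genes.

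**Figure D1:**
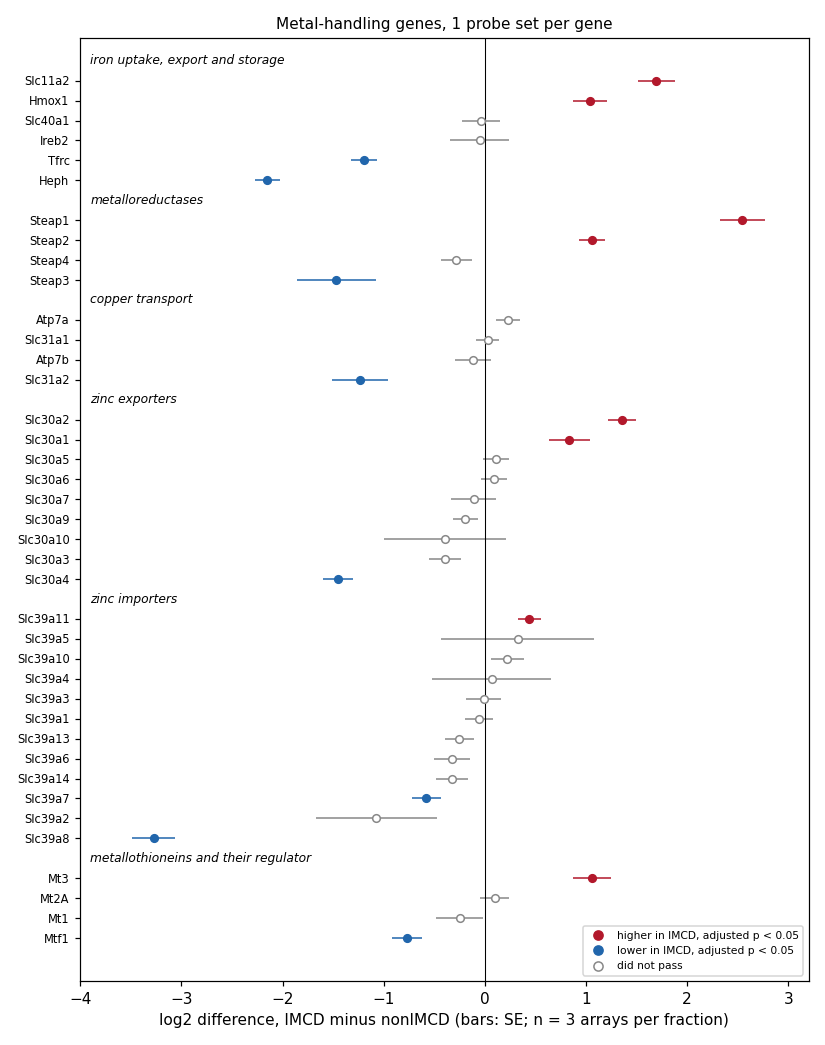
Log2 difference between the IMCD and nonIMCD fractions (x axis) for each of the 39 genes, grouped by role, with standard errors from the fit (3 arrays per fraction). Filled points passed the test, 8 to the right of 0 (higher in IMCD) and 8 to the left; Steap1 (2.55) and Slc39a8 (-3.28) lie at the ends.

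Facts of the arrays moved with every fraction difference. The 3' over 5' signal of control transcripts, averaged over Actb, Gapdh and hexokinase, was 0.69 ± 0.03 for IMCD and 1.35 ± 0.14 for nonIMCD on the log2 scale (SD, n = 3). Its part in the differences was not tested. Of the marker lists, 8 of 9 genes of collecting duct principal cells rose in IMCD, 7 of 7 endothelial, 3 of 3 thin limb and 11 of 12 leukocyte genes were lower, and 3 of 4 erythroid genes were lower. The principal cell gene that did not pass was Aqp2, a bright signal in both fractions. It had 47833 to 56084.5 in IMCD and 37998 to 50634 in nonIMCD, with overlap (0.29, limma adjusted p = 0.261). Of the remaining lists, 5 of 8 interstitial and pericyte, 3 of 6 thick ascending limb and 2 of 6 proximal tubule genes were lower, with 0 higher, and 3 of 6 intercalated cell genes were higher, with 0 lower. Summed marker intensities in IMCD and nonIMCD were 136669 to 144106 and 66944 to 85445 for principal cells, 9829 to 12209 and 55367 to 61963 for endothelium, and 1045 to 1474 and 74807 to 83924 for leukocytes. They were 4571 to 7194 and 59569 to 82221 for the thin limb, and 4033 to 4170.1 and 33051 to 36653 for interstitial cells and pericytes. Most of the thin limb sum was Aqp1, with means of 5698 in IMCD and 63194 in nonIMCD. The summed intensities were 30335 to 33380.5 and 15662 to 20328 for intercalated cells, 1900.3 to 6315 and 7139 to 10699.9 for the thick ascending limb, and 667 to 775 and 3796 to 5137 for the proximal tubule. For the erythroid list they were 5573 to 10003 and 31235 to 90833, and 747 to 3040.1 and 29645 to 87145 without Slc4a1, which is also an intercalated cell gene and did not pass (0.91, limma adjusted p = 0.165). The highest negative control was 22.4, 45.2 and 45.8 on IMCD replicates 1, 2 and 3. On nonIMCD replicates 2 and 3 it was 13.0 and 19.9. The highest negative control intensity of all arrays was 78.4, on nonIMCD replicate 1. The leukocyte markers Aif1, C1qb, Ccl6, Cd3e, Itgam and Itgax, the thin limb marker Epha7 and the erythroid marker Ahsp had IMCD means under it. The same held for Slc26a4 (intercalated cell), Pdgfra (interstitial cell and pericyte), Cubn and Slc5a2 (proximal tubule). Cubn and Slc5a2 had means under it in both fractions, and no marker was at 0. The part of cell composition in the results that follow was not tested, and in these bulk samples fewer cells of a type and less RNA per cell cannot be told apart.

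Iron uptake genes moved in opposite directions. Slc11a2, which carries ferrous iron across the cell membrane and out of endosomes, had intensities of 6270, 5899 and 7996 on the IMCD arrays and 1842, 1956 and 2373 on the nonIMCD arrays. Every IMCD array lay above every nonIMCD array, and IMCD was 3.24 times as bright (log2 difference 1.70 ± 0.18, SE, limma adjusted p = 0.00224). A second Slc11a2 probe set differed by 1.16 ± 0.15 (adjusted p = 0.00422). Tfrc, the transferrin receptor, which brings in transferrin-bound iron and is known for its high level on erythroid precursors, had 811, 730 and 836 in IMCD and 1728, 1814 and 1951 in nonIMCD. The groups did not overlap here either, with nonIMCD 2.29 times as bright (-1.19 ± 0.13, SE, adjusted p = 0.00223), and the second probe set gave -0.74 (adjusted p = 0.0147). Erythroid markers, summed above, moved in the same direction as Tfrc, and so did every other list except principal and intercalated cells. Which cells carry Tfrc was not tested. Ireb2, one of the RNA-binding proteins that adjust Tfrc and ferritin to the iron supply, had 524, 298 and 577 in IMCD and 474, 560 and 380 in nonIMCD. These groups overlapped, and the difference of -0.05 ± 0.29 (SE) did not pass (adjusted p = 0.923).

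Iron export genes did not move together. Heph, hephaestin, a membrane-bound copper-dependent ferroxidase that oxidises iron as ferroportin releases it, had 569, 666 and 629 in IMCD and 2860, 2891 and 2690 in nonIMCD. The nonIMCD arrays were all far above the IMCD arrays, 4.44 times as bright in the mean (-2.15 ± 0.12, SE, limma adjusted p = 0.000415). Slc40a1, the only known iron exporter of animal cells, had 528, 575 and 734 in IMCD and 574, 738 and 572 in nonIMCD, and its groups overlapped. Its difference was -0.04 ± 0.19 (SE, adjusted p = 0.906), and its other probe sets gave 0.20 and -0.11 (adjusted p = 0.527 and 0.762). Hmox1, the inducible heme oxygenase, which frees iron from heme and is known to respond to heme and oxidative stress, had 5105, 3745 and 5178 in IMCD and 2268, 2100 and 2364 in nonIMCD. All IMCD arrays were above all nonIMCD arrays, with a 2.06-fold difference (1.04 ± 0.17, SE, adjusted p = 0.0101). Of the 6 genes measured from the list of iron uptake, export and storage, 2 were thus higher, 2 lower and 2 did not pass (66.7% called, beside 25.8% of all genes). No ferritin is among them, so storage itself was not read.

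Metalloreductases of the Steap family divided by member. Steap1, which carries a heme group but lacks the cofactor-binding domain of its relatives, showed the largest excess in IMCD among the 39 genes. Its intensities were 4314, 3395 and 4646 in IMCD and 731, 526 and 836 in nonIMCD. The groups were well apart, with IMCD 5.84 times as bright (2.55 ± 0.22, SE, limma adjusted p = 0.00129). Steap2, a reductase of ferric iron and cupric copper, had 1775, 1516 and 1829 in IMCD and 792, 818 and 815 in nonIMCD. Its groups did not overlap, at a 2.08-fold difference (1.06 ± 0.13, SE, adjusted p = 0.00356), and its second probe set gave 1.06 ± 0.35 without passing (adjusted p = 0.086).

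Steap3, the endosomal reductase that erythroid cells use for transferrin-bound iron, went the other way. It had 154, 69.2 and 181 in IMCD and 462, 444 and 258 in nonIMCD, 2.77 times as bright in nonIMCD (-1.47 ± 0.39, SE, limma adjusted p = 0.0464). IMCD replicate 2 lay below the highest negative control of all arrays but above that of its own array (45.2). The value on nonIMCD replicate 3 lay well below the other nonIMCD arrays, though the groups did not overlap. The call was lost under median centring, quantile normalization and a pseudocount of 1 (adjusted p = 0.081, 0.103 and 0.0625). It was also lost without IMCD replicate 1, 2 or 3 (-1.60, -1.10 and -1.70, adjusted p = 0.0898, 0.0765 and 0.0577) and without nonIMCD replicate 1 or 2 (-1.32 and -1.35, adjusted p = 0.131 and 0.129), so it rested on every array but nonIMCD replicate 3. Steap4, known from adipose and inflamed tissue, had 986, 894 and 1176 in IMCD and 1310, 1129 and 1274 in nonIMCD. Its groups overlapped and it did not pass (-0.28, adjusted p = 0.252).

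**Figure D2:**
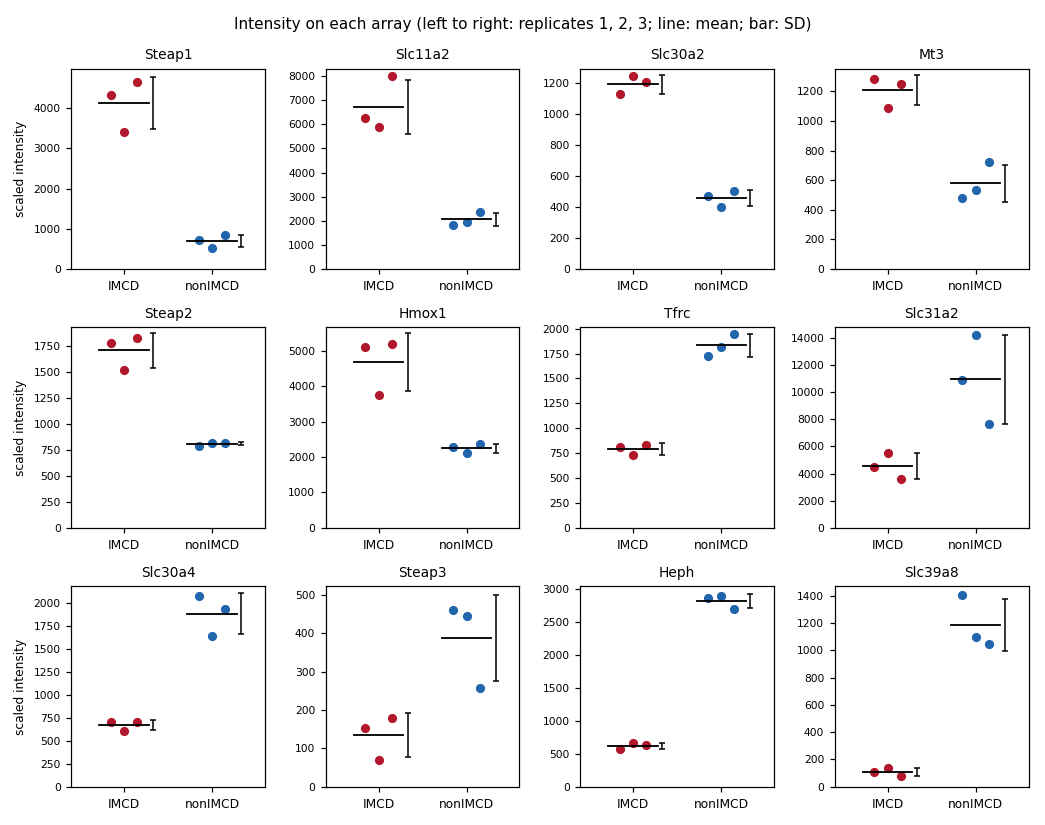
Deposited scaled intensity (linear y axes from 0, each gene with its own range) on the 3 IMCD and 3 nonIMCD arrays for the 12 genes that passed the test with a log2 difference of at least 1 in size; lines are means and bars are SD. In each panel the fractions are separate, from Steap1 (3395 to 4646 against 526 to 836) to Slc39a8 (82.0 to 135 against 1047 to 1402).

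Among copper transporters 1 of 4 passed, a share (25.0%) near that of all genes (25.8%). Slc31a2 (CTR2), a copper transporter found mainly on endosomes and lysosomes, had 4494, 5548 and 3637 in IMCD and 10915, 14226 and 7667 in nonIMCD. The groups did not overlap but both were spread widely, and nonIMCD was 2.35 times as bright (-1.24 ± 0.28, SE, limma adjusted p = 0.0283). A second probe set was lower too (-0.83 ± 0.22, adjusted p = 0.0449). The main call was lost under median centring (-0.95, adjusted p = 0.0589) and without IMCD replicate 1 or 3 (-1.24 and -1.08, adjusted p = 0.0833 and 0.0826) or nonIMCD replicate 1 or 2 (-1.21 and -1.02, adjusted p = 0.0851 and 0.0703).

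Slc31a1 (CTR1), the high-affinity copper importer of the cell surface, had 2807, 3144 and 3052 in IMCD and 2923, 2953 and 2937 in nonIMCD. The nonIMCD values fell inside the IMCD range, and the difference was 0.03 ± 0.12 (SE, limma adjusted p = 0.888). Its dimmer probe sets gave 0.49, 0.53 and 0.56, none past the threshold (adjusted p = 0.311, 0.181 and 0.0693). Atp7a, the copper-exporting ATPase altered in Menkes disease, had 3007, 2970 and 2776 in IMCD and 2457, 2401 and 2619 in nonIMCD. These did not overlap, yet the 0.23 ± 0.12 (SE) between them missed the threshold (adjusted p = 0.231). Under median centring it passed (0.51, adjusted p = 0.0247). Atp7b, the related pump altered in Wilson disease, had 266 to 276 in IMCD and 237 to 365 in nonIMCD (-0.12, adjusted p = 0.694).

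Zinc exporters gave 2 higher and 1 lower of 9 genes measured (33.3% called, beside 25.8% of all genes). Slc30a2 (ZnT2), which loads zinc into vesicles and is known for supplying zinc to milk, had 1127, 1244 and 1206 in IMCD and 469, 400 and 503 in nonIMCD. All IMCD arrays were above all nonIMCD arrays, at 2.56-fold (1.36 ± 0.14, SE, limma adjusted p = 0.00198), and the second probe set gave a like difference (1.37 ± 0.17, adjusted p = 0.00357). Slc30a1 (ZnT1), the zinc exporter of the plasma membrane, had 1022, 837 and 1134 in IMCD and 493, 485 and 687 in nonIMCD. Its groups did not overlap, at 1.78-fold (0.84 ± 0.20, SE, adjusted p = 0.0338). The Slc30a1 call was lost without IMCD replicate 1 or 3 (0.81 and 0.74, adjusted p = 0.102 and 0.0978) or nonIMCD replicate 1 or 2 (0.76 and 0.75, adjusted p = 0.103 and 0.0989).

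Slc30a4 (ZnT4), an exporter of endosomes and the secretory pathway, was lower. It had 705, 610 and 710.0 in IMCD and 2073, 1636 and 1940 in nonIMCD. Again the groups were apart, with nonIMCD 2.74 times as bright (-1.45 ± 0.15, SE, limma adjusted p = 0.00201). A dimmer Slc30a4 probe set gave -0.41 ± 0.29 and did not pass (adjusted p = 0.366). The zinc exporters of the early secretory pathway, Slc30a5, Slc30a6 and Slc30a7, differed by 0.11, 0.09 and -0.11 (adjusted p = 0.611, 0.652 and 0.77), and the mitochondrial Slc30a9 by -0.19 (adjusted p = 0.333). Slc30a3, known from synaptic vesicles, had 292 to 403 in IMCD and 431 to 488 in nonIMCD without overlap, and its -0.40 missed the threshold (adjusted p = 0.14). With dim probe sets left out its adjusted p was 0.0441. The manganese exporter Slc30a10 lay under the highest negative control in the mean of both fractions and did not pass (adjusted p = 0.691). Without nonIMCD replicate 3 it had -1.09 (adjusted p = 0.0293).

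Zinc importers gave 1 higher and 2 lower of 12 measured, a share called (25.0%) near that of all genes (25.8%). Slc39a8 (ZIP8), which imports zinc, manganese and ferrous iron and is known from macrophages, had 109, 135 and 82.0 in IMCD and 1402, 1099 and 1047 in nonIMCD. It showed the largest deficit among the 39 genes, with nonIMCD 9.68 times as bright (-3.28 ± 0.21, SE, limma adjusted p = 0.000531). Its IMCD values were dim, but each lay above the highest negative control of its own array (22.4, 45.2 and 45.8). Every marker list summed above, other than those of principal and intercalated cells, moved in the same direction as Slc39a8. A cell source was not tested. Slc39a7 (ZIP7), which releases zinc from the endoplasmic reticulum, had 1117, 927 and 889 in IMCD and 1395, 1568 and 1425 in nonIMCD. The groups did not overlap at a difference of -0.58 ± 0.14 (SE, adjusted p = 0.037).

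The Slc39a7 call depended on the scaling and on single arrays. Median centring gave -0.29 (adjusted p = 0.203) and quantile normalization -0.45 (adjusted p = 0.0692). Without IMCD replicate 2 or 3 the difference was -0.54 and -0.51 (limma adjusted p = 0.109 and 0.106). Without nonIMCD replicate 1, 2 or 3 it was -0.61, -0.53 and -0.60 (adjusted p = 0.0859, 0.102 and 0.0768). Slc39a11 (ZIP11), a zinc transporter of the Golgi and nucleus, had 1647, 1602 and 1531 in IMCD and 1178, 1211 and 1119 in nonIMCD. Its small difference of 0.44 ± 0.11 (SE, adjusted p = 0.0434) came with no overlap. It lost its call without any 1 of the 6 arrays: without IMCD replicate 1, 2 or 3 (0.42, 0.44 and 0.47, adjusted p = 0.133, 0.116 and 0.0899) and without nonIMCD replicate 1, 2 or 3 (0.45, 0.47 and 0.41, adjusted p = 0.111, 0.0842 and 0.0987).

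The other 9 zinc importers did not pass. Slc39a1, a zinc importer of the plasma membrane found in most tissues, had 6275 to 8097 in IMCD and 7226 to 7643 in nonIMCD (-0.06, limma adjusted p = 0.808). Slc39a10, Slc39a6, Slc39a13, Slc39a14 and Slc39a3 differed by 0.22, -0.32, -0.25, -0.32 and -0.01 (adjusted p = 0.385, 0.264, 0.267, 0.215 and 0.968). Of these, Slc39a6 was the 1 whose arrays did not overlap, with 1060 to 1170 in IMCD and 1178 to 1763 in nonIMCD. Slc39a4, the importer of dietary zinc in the intestine, varied from 52.6 to 210.2 over the 6 arrays without separating the fractions (0.07, adjusted p = 0.95). Slc39a5 had means of 39.4 and 42.9, both under the highest negative control (adjusted p = 0.802). Slc39a2 had an IMCD mean under it (-1.07, adjusted p = 0.261), with -1.70 (adjusted p = 0.0415) without IMCD replicate 1.

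Metallothioneins, the zinc- and copper-binding proteins, were called in 1 of 3 genes, beside 25.8% of all genes, and so few genes give no share to compare. Mt3, known as the metallothionein of the brain, had 1282, 1091 and 1254 in IMCD and 483, 533 and 721 in nonIMCD. Every IMCD array exceeded every nonIMCD array, at 2.08-fold (1.06 ± 0.19, SE, limma adjusted p = 0.0127). Mt2A, a widely expressed metallothionein induced by metals and glucocorticoids, had 47361, 52602 and 54556 in IMCD and 42582, 50872 and 51418 in nonIMCD. Its groups overlapped, with a difference of 0.10 ± 0.14 (SE, adjusted p = 0.678). Mt1 had 323, 284 and 505 in IMCD and 464, 401 and 429 in nonIMCD, with overlap and no call (-0.25 ± 0.23, SE, adjusted p = 0.501). Metallothionein transcripts are alike in sequence, so a probe set can read a relative, and values of single members are uncertain to that extent.

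Mtf1, the zinc-sensing transcription factor that drives metallothionein and Slc30a1 transcription, was lower in IMCD. It had 821, 1072 and 937 in IMCD and 1531, 1607 and 1702 in nonIMCD. The groups did not overlap, at 1.71-fold (-0.77 ± 0.15, SE, limma adjusted p = 0.0159). The call was lost under median centring (-0.48, adjusted p = 0.0549), and without IMCD replicate 1 or 3 (-0.68 and -0.77, adjusted p = 0.0528 and 0.0513) or nonIMCD replicate 2 (-0.77, adjusted p = 0.0503). Its dimmer probe sets gave -0.06 and -0.25 (adjusted p = 0.951 and 0.66).

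The metal response element to which Mtf1 binds has a core that was searched as TGCACNC and TGCGCNC on both strands, in the 250 bases before each RefSeq gene start of the GRCr8 assembly, with overlapping matches joined. Promoters of the 3 metallothionein genes and of Slc30a1 are shown because Mtf1 is known to act on this family and because Mt3 and Slc30a1 were higher in IMCD while Mt1 and Mt2A did not pass. They are written 5′ to 3′ on the strand of the gene, and capitals mark the matches. Mt1 (chr19:10832976-10833225, minus strand) has 6 matches, Mt2A (chr19:10838709-10838958, minus strand) has 4, Mt3 (chr19:10856081-10856330, minus strand) has 3 and Slc30a1 (chr13:106021769-106022018, plus strand) has 2.
Mt1: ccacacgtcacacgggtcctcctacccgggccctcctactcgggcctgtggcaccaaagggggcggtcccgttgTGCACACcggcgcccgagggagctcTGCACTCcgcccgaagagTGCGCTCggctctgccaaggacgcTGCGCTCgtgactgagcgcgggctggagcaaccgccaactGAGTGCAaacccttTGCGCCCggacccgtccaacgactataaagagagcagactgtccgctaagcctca
Mt2A: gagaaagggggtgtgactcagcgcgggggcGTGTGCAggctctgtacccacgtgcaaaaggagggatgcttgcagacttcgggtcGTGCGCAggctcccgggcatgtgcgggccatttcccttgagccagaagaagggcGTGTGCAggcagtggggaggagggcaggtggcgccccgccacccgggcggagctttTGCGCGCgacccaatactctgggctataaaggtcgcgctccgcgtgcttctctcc
Mt3: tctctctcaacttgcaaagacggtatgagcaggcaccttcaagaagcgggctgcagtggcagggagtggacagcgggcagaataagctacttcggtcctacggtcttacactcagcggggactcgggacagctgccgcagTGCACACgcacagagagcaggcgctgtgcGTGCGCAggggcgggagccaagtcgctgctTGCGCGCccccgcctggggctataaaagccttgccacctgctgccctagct
Slc30a1: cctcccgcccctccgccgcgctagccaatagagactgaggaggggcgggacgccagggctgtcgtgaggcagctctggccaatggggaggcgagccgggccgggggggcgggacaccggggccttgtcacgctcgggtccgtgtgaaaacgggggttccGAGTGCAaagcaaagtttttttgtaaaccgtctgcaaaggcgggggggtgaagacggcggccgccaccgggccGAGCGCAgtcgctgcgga

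The 3 metallothionein promoters each hold the letters TATAAA between the last match and the start, and that of Slc30a1 does not. Of all 27457 genes with a promoter entry, 22.5% held at least 1 match, 4.51% at least 2, 0.823% at least 3 and 0.135% at least 4. Among the 34 of the 39 genes with an entry, 17 held at least 1 match. These were 5 of the 7 higher genes with an entry, 6 of the 8 lower genes and 6 of the 19 genes that did not pass. At least 3 were held by 4 genes (11.8%), the 3 metallothioneins and Slc39a7, which was lower in IMCD and has 3. Mtf1, Slc30a2, Slc30a4, Slc39a13, Steap1 and Tfrc held 2, as many as Slc30a1. Matches were thus present in promoters of genes of both directions, and in Mt1 and Mt2A, which did not pass. The letters are a description of the window and not evidence of binding.

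Several probe sets were available for 15 of the 39 genes. Of their 22 further probe sets 4 passed the test (18.2%, beside 22.0% of all probe sets tested). These were the second probe sets of Slc11a2, Slc30a2, Tfrc and Slc31a2, each in the direction of the main one, and 0 were called in the opposite direction. For the other called genes with several probe sets, Steap2, Mtf1 and Slc30a4, the further ones did not pass. Probe sets of the same gene also differed in sign without passing. For Slc30a9 the main one gave -0.19 and a dimmer one 0.71 ± 0.21 (SE, limma adjusted p = 0.0598), and for Slc39a14 they gave -0.32 and 0.34 (adjusted p = 0.215 and 0.315).

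**Figure D3:**
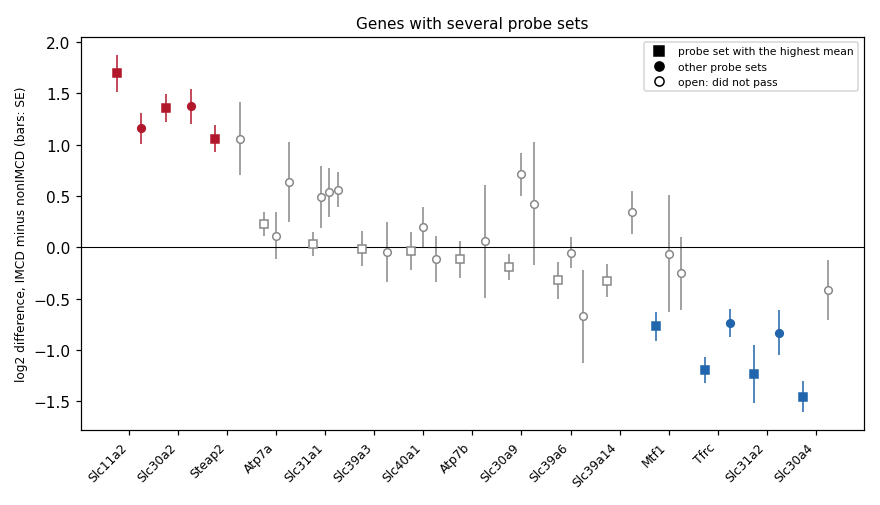
Log2 difference between the IMCD and nonIMCD fractions with its standard error (y axis, 3 arrays per fraction) for every probe set of the 15 genes with more than 1; squares are the probe sets with the highest mean and filled symbols passed the test. The filled circles, for Slc11a2, Slc30a2, Tfrc and Slc31a2, lie on the side of their squares.

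Other iron and heme genes, listed by function apart from the 39, gave 5 higher, 2 lower and 19 not passing of 26 measured (26.9% called, near the 25.8% of all genes), with a median difference of 0.03 beside -0.09 for all genes. Cp, ceruloplasmin, a copper-dependent ferroxidase related to hephaestin, had 6112, 6303 and 5005 in IMCD and 1837, 1329 and 2135 in nonIMCD. It was higher without overlap (1.73 ± 0.22, SE, limma adjusted p = 0.00384), the direction opposite to that of Heph. Cp has 3 probe sets, of which the one with the highest mean was used, and values of the others are not given here. Hfe, which binds the transferrin receptor and takes part in iron sensing, had 454, 423 and 346 in IMCD and 101, 171 and 218 in nonIMCD (1.29 ± 0.28, SE, adjusted p = 0.0256). Cybrd1, a ferric reductase that supplies Slc11a2 in the intestine, had 1032, 904 and 1100 in IMCD and 368, 383 and 554 in nonIMCD. It too was higher without overlap (1.21 ± 0.20, SE, adjusted p = 0.00984). The remaining higher genes were Nfs1, which provides sulfur for iron-sulfur clusters (0.58, adjusted p = 0.0172), and Lcn2, which binds iron-carrying siderophores (0.55, adjusted p = 0.043). The lower genes were Flvcr2 (-2.39, adjusted p = 0.0257) and Ncoa4, the cargo receptor for ferritin breakdown (-0.51, adjusted p = 0.0383). Flvcr2 had 74.4, 16.7 and 5.24 in IMCD. The first lay above the highest negative control of its array (22.4) and the others below theirs (45.2 and 45.8). Flvcr2 has 2 probe sets, of which the one with the highest mean was used.

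Other copper genes gave 3 higher, 0 lower and 5 not passing of 8 measured (37.5% called, beside 25.8% of all genes), with a median of 0.21. Atox1, the chaperone that hands copper to Atp7a and Atp7b, had 4789, 5075 and 4577 in IMCD and 3279, 3662 and 3411 in nonIMCD. The groups were apart at a small difference of 0.48 ± 0.12 (SE, limma adjusted p = 0.0394). Sod1, the copper- and zinc-dependent superoxide dismutase, was higher by 0.44 ± 0.12 (SE, adjusted p = 0.0482), and Cox11, which delivers copper to cytochrome oxidase, by 0.74 ± 0.15 (SE, adjusted p = 0.0216). Cox11 has 3 probe sets, of which the one with the highest mean was used. The chaperone Ccs, which loads Sod1, had 0.25 (adjusted p = 0.189).

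All 16 calls kept their direction under the 13 alternatives that reanalysed the same probe sets, of which Steap3 had a value in 12, since it was left out with the dim probe sets. Of the 16, 10 also kept their call in each of these: Steap1, Slc11a2, Slc30a2, Mt3, Steap2, Hmox1, Slc39a8, Heph, Slc30a4 and Tfrc. Another probe set was available for 7 of the 16 genes. By the second-highest probe set Slc11a2, Slc30a2, Tfrc and Slc31a2 passed in the same direction, and Steap2, Slc30a4 and Mtf1 did not pass (limma adjusted p = 0.086, 0.366 and 0.951). The balance of directions moved with the scaling. Centring each array on its median shifted the median difference of all probe sets up by 0.29 and left 9 genes higher and 4 lower, and quantile normalization shifted it by 0.15 and left 8 higher and 6 lower. Without IMCD replicate 1, the array with the younger age label, 6 genes were higher and 6 lower. Without IMCD replicate 3, nonIMCD replicate 1 or nonIMCD replicate 2 the lower genes numbered 4, 5 and 4.

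**Figure D4:**
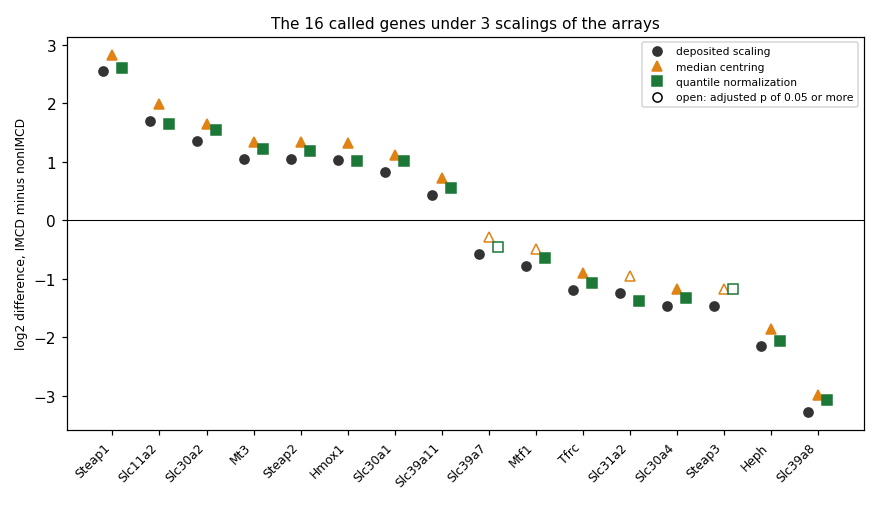
Log2 difference between the IMCD and nonIMCD fractions (y axis, 3 arrays each, no error bars) for the 16 called genes with the deposited scaling, after centring each array on its median and after quantile normalization; open symbols did not pass at an adjusted p of 0.05. All symbols stay on their side of 0, and open ones occur for Slc39a7, Mtf1, Slc31a2 and Steap3.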

How the data were processed

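RNA of each fraction, about 3 µg per array, was hybridised as biotinylated cRNA to 3 Affymetrix rat expression arrays, per the labels' protocols and the series' design text. Each probe set has 1 deposited intensity per array, on a linear scale, which the authors had scaled to a common trimmed mean (1000.3 to 1000.4 with 2% trimmed at each end). The software used is not stated in the labels, and detection calls were not used. A difference is therefore relative to each array's average brightness, and the number of arrays limits the precision.

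Of 31099 probe sets, 57 controls were left out of the tests. Genes were named through the platform annotation. Of the tested probe sets 20826 had 1 symbol, 436 several and 9780 none. Symbols of all 39 genes were matched to RefSeq gene identifiers (GRCr8), with 0 changed. Negative controls are the TrpnX probe sets.

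Values were analysed as log2(intensity + 16) with limma 3.58.1 in R 4.3.3 (lmFit, eBayes, two-sided, all 6 arrays, no covariate, no filter). A run on simulated data with independent noise checked only that planted differences were recovered in the mean. It does not bear on the calls made here. Alternatives were median centring, quantile normalization, pseudocounts of 1 and 64, leaving out dim probe sets, an intensity trend, a replicate block, leaving out each array in turn and the second-highest probe set. All 39 genes are accounted for. Values per array were to be given for genes past the threshold with a log2 difference of at least 1 in size and for the brightest; further genes shown that way were picked after their values were seen. In each other iron and copper list the 3 with the largest called difference are named, with others known to act with the 39. The genes and lists were chosen with earlier results of these data known.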

Additional observations from a re-analysis of the deposited data

How the results depend on the processing

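As deposited, 2663 probe sets passed as higher in IMCD and 4163 as lower, and 8 and 8 of the 39 metal-handling genes did. Under median centring these counts were 5389 and 2652 for probe sets, and 4 of the 39 genes were lower. Without 1 array they ranged from 1537 to 2248 higher and 2647 to 3221 lower probe sets, and from 4 to 8 lower genes. The replicate block, the number in the titles as a factor, gave 1831 higher and 2993 lower probe sets and 7 higher and 6 lower genes, with Slc39a11, Slc39a7 and Steap3 losing their calls (limma adjusted p = 0.0875, 0.0879 and 0.111). The series' design text speaks of 3 pairs of fractions without saying which arrays form them. Deviations of arrays with the same number correlated at 0.040, 0.035 and 0.061, and each IMCD array correlated best with its own number. Correlations this low do not settle whether the numbers mark pairs. By the age labels, IMCD replicate 1 (6 weeks) has no nonIMCD array of its age. Each sign change below is of a gene that did not pass with the deposited scaling nor under the setting named. Under median centring the sign turned for Atp7b (0.17), Ireb2 (0.24), Mt1 (0.039), Slc30a7 (0.18), Slc30a9 (0.10), Slc39a1 (0.23), Slc39a13 (0.03), Slc39a3 (0.28), Slc40a1 (0.25) and Steap4 (0.0053). After quantile normalization it turned for Atp7b (0.17), Ireb2 (0.20), Mt1 (0.015), Slc30a7 (0.13), Slc31a1 (-0.0010), Slc39a3 (0.23) and Slc40a1 (0.18). Leaving out 1 array gave ranges across 0 for Atp7b (-0.26 to 0.034), Ireb2 (-0.23 to 0.23), Slc30a7 (-0.31 to 0.033), Slc31a1 (-0.0053 to 0.076), Slc39a1 (-0.15 to 0.029), Slc39a3 (-0.10 to 0.13), Slc39a4 (-0.42 to 0.55), Slc39a5 (-0.12 to 1.14) and Slc40a1 (-0.17 to 0.079). The range for Slc30a10 was -1.09 to 0.083, and the value at its lower end, without nonIMCD replicate 3, passed (adjusted p = 0.0293). Among genes with several probe sets, 3 were higher and 4 lower by the main probe set, and 2 and 2 by the second-highest. The cause of these changes was not tested. Signals near the negative controls limit what can be said of Slc30a10, Slc39a2, Slc39a4 and Slc39a5.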
